A study of Mus musculus with 2 samples.

Results

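The genes described here encode the machinery of the lysosome: acid hydrolases and their cofactors, proteins of the lysosomal membrane, subunits of the vacuolar proton pump, and the transcription factors Tfeb, Tfe3 and Mitf. The set was chosen by gene name and held 36 listed genes, and 35 of them were found among the 20653 genes that the arrays measured with a named probe. A gene was represented by its probe of highest mean signal. No probe could be matched to Cd68, a glycoprotein of macrophage lysosomes, so it has no value here. RNA came from M-MDSCs, monocytic cells of the myeloid lineage that suppress T cells, isolated with a cell separation kit from 4T1 tumours of young adult female BABL/c mice. 4T1 is a mammary carcinoma line, and each mouse had received 1000000 of its cells under the skin after a day without food. The NSD group was fed 0.4% NaCl in chow with tap water, and the HSD group 4% NaCl in chow with 1% NaCl in the water, both for 16 days. Isolated cells were mixed in equal numbers within a diet, and each mixture was hybridised to 1 array, so a diet is represented by a single pool.

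Lysosomes are the acidic compartment in which phagocytes break down what they take up, and where every cell recycles its own components. The proton pump acidifies the lumen, hydrolases cut proteins, glycans and lipids into units that transporters export, and heavily glycosylated membrane proteins shield the limiting membrane. Tfeb, Tfe3 and Mitf belong to one family of helix-loop-helix factors that bind CACGTG motifs in the promoters of many of these genes. When nutrients are plentiful, mTORC1 at the lysosomal surface keeps Tfeb and Tfe3 in the cytoplasm.

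The promoters of the set were searched for the CACGTG motif that these factors bind. RefSeq windows of 250 bases before to 50 bases after the transcription start (build GRCm38.p6) were at hand for 30 of the 36 genes. The motif reads the same on both strands, and 10 of the 30 members (33.3%) held it, beside 8.09% of the 27025 genes in the table. The longer TCACGTGA, which contains the shorter motif and also reads the same on both strands, was present in 5 of the 30 (16.7%) and in 1.12% of all genes. A match of letters is a description and not evidence that a factor binds there. The windows below show the 5 members with the longer motif, then Lamp1, which held the short motif 4 times, and Naglu and Sgsh, glycan-degrading enzymes whose signals were lower in the HSD group. The capitals mark CACGTG, and each is written 5′ to 3′ on the strand of the gene.
Gla (chrX:134601182-134601211, minus strand): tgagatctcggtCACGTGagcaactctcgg
Cln3 (chr7:126583340-126583369, minus strand): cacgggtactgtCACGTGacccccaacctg
Mcoln1 (chr8:3500462-3500491, plus strand): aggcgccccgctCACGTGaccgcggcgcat
Atp6v0d1 (chr8:105566050-105566079, minus strand): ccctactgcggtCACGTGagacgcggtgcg
Atp6v1a (chr16:44139373-44139402, minus strand): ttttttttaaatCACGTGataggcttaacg
Lamp1 (chr8:13159104-13159133, plus strand): tggtccagcgccCACGTGatgccgactggc
Naglu (chr11:101070009-101070038, plus strand): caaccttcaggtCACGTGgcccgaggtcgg
Sgsh (chr11:119355522-119355551, minus strand): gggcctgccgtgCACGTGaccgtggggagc

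Since each diet has 1 array, the spread between mice was not measured and no p-value is given. Signals are given as intensity units before scaling. Each array was scaled on its 75th percentile, and log2 fold changes are written as HSD over NSD, so that a negative value is a lower signal in HSD. That percentile was 0.11 lower (log2) on the HSD array, so equal raw signals give a log2 fold change of 0.11. All 35 genes had a probe well above background on both arrays, so each has a measured fold change and none is a bound. Measurement noise was read from probes printed in several spots. Among such probes with a signal within a factor of 2 of a member's dimmer signal, 95% of the pairs of spots on an array differed by less than a log2 value that ran from 0.20 to 0.58 over the members. Such pairs show the precision of a spot on its array, not how mice differ. The log2 fold changes of 21 members lay beyond it and those of 14 within it. The same count was not made over all genes, so it does not set the members apart. Pairs on an array also leave out differences in labelling and hybridisation between the arrays. Markers were checked beside the label. Itgam, which encodes CD11b, had signals of 31564 under NSD and 31043 under HSD. The paper uses CD11b to define both monocytic and granulocytic MDSCs, so this gene does not tell them apart. No probe was matched to Ly6c2 or Ly6g. Of 12 neutrophil markers, 11 had a probe, all of them well above background on both arrays, and their summed signal was 375243 and 362104. Of 10 monocyte markers, 9 had a probe, and their summed signal was lower, at 91535 under NSD and 99557 under HSD. The neutrophil signal was thus strong in these cells. Signals of different probes are not on one scale, so the sums do not give the share of granulocytes, which was not tested. Of 12 macrophage markers, 10 were measured, and 7 were at least 1.5-fold lower and none at least 1.5-fold higher in the HSD group. The summed signal of the macrophage list was 29187 under NSD and 17487 under HSD, with Mrc1 lower by 22.6-fold and Cd163 and Vsig4 not well above background on either array. In a bulk sample, fewer cells of a type and less RNA per cell cannot be told apart.

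As a set, the lysosomal genes sat near the centre of the array. Their median log2 fold change was 0.014, beside 0.045 over the 16312 genes with a usable value, and 18 members were above 0 and 17 below. At least 1.5-fold differences were seen for 6 members. Ppt1 was higher in the HSD group, 2.86% of the 35 members beside 9.86% of all genes. Gusb, Npc2, Naglu, Ids and Atp6v0d2 were lower, 14.3% of the members beside 10.3% of all genes, a share near the background. The members were not spread evenly between roles, and the roles are described in turn. Between the quartiles of all genes, from −0.25 to 0.31, lay 14 members, with 13 below and 8 above.

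**Figure D1:**
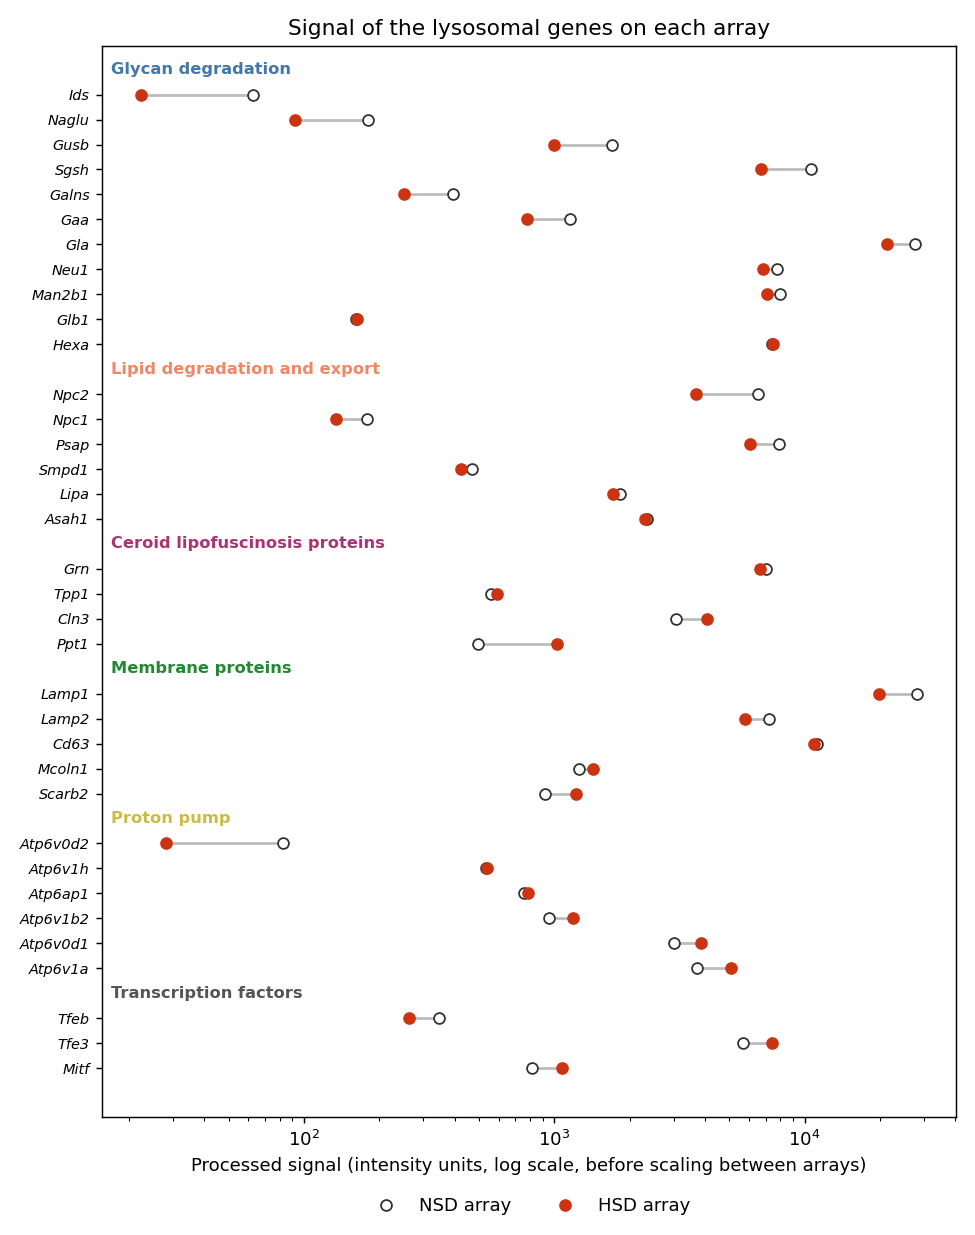
Processed signal of 35 lysosomal genes, grouped by role, on a log scale of intensity units before scaling between arrays. Each row is a gene, the open circle is the NSD array and the filled circle the HSD array. The widest gaps belong to Atp6v0d2 (82.6 and 28.2), Ids (62.9 and 22.4) and, in the other direction, Ppt1 (495.0 and 1030.0).

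Of the 5 members at least 1.5-fold lower, 3 were enzymes of glycan breakdown, Ids, Naglu and Gusb. They were 27.3% of the 11 genes of this group, beside 10.3% of all genes. The number in this group was between 2 and 5 under the other settings that keep the 1.5-fold threshold. Of its 11 genes, 9 had a log2 fold change below 0, beside 7463 of 16312 among all genes. The median of the group was −0.45, and between −0.53 and −0.39 under the other settings tried. Ids encodes iduronate 2-sulphatase, which removes sulphate from heparan and dermatan sulphate. Its signal was 62.9 under NSD and 22.4 under HSD (log2 fold change −1.38). Naglu, the N-acetylglucosaminidase of the heparan sulphate pathway, had signals of 180.0 and 92.2 (log2 fold change −0.85). Each of these enzymes acts on the same chain at a different bond. With the normexp background correction, which adds a constant to every signal, their log2 fold changes were −0.54 for Ids and −0.56 for Naglu, inside 1.5-fold.

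Gusb, β-glucuronidase, was the member with the best technical precision, since its probe was printed in 10 spots per array. The spots of the NSD array lay between 1567 and 1852 with a median of 1705. Those of the HSD array lay between 921 and 1072 with a median of 994, and the spots of the 2 arrays did not overlap. These are spots of 1 pool per diet and say nothing of the spread between mice. The log2 fold change was −0.66, and between −0.76 and −0.62 under the other settings, past 1.5-fold in all 10.

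Sgsh, the sulphamidase of heparan sulphate, was just short of 1.5-fold on its brighter probe, with signals of 10581 and 6695 (log2 fold change −0.55). Its second probe went from 695 to 377 (log2 fold change −0.77), and under 6 of the 10 other settings the gene was past 1.5-fold. Galns, which removes sulphate from keratan sulphate and chondroitin sulphate, had signals of 393.9 and 251.6 (log2 fold change −0.53). It was inside 1.5-fold under every setting. Gaa, the acid α-glucosidase that digests glycogen, had 1152 and 778 (log2 fold change −0.45). A second Gaa probe read 12.9 under NSD but did not stand well above background under HSD, a bound of at least 2.71-fold lower.

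The other glycosidases differed less. Gla, α-galactosidase A, had signals of 27723 and 21342 (log2 fold change −0.26). Hexa, the α subunit of β-hexosaminidase, had 7402 and 7507, and Glb1, β-galactosidase, had 161.3 and 163.1, each with a log2 fold change of 0.13. Neu1, the sialidase, had 7744 and 6793 (−0.075), and Man2b1, an α-mannosidase, 7972 and 7097 (−0.054). The values of these 4 genes and of Gla lay within the spread of spot pairs.

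Grouped by disease, Ids, Sgsh, Naglu, Galns, Glb1 and Gusb are the members whose loss causes a mucopolysaccharidosis, a failure to degrade glycosaminoglycans. This grouping was made after the values were seen and carries no test. Of the 6, 5 were below 0, and their median was −0.60. Of other genes of this disease group, Hyal1, a hyaluronidase, went from 22.9 to 5.67 (log2 fold change −1.90). Its HSD signal was close to 4.39, the lowest signal well above background on that array, and came from 1 spot. Hgsnat, the acetyltransferase of the heparan sulphate pathway, was at −0.34. Idua was at 0.033 and Arsb at 0.15.

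**Figure D2:**
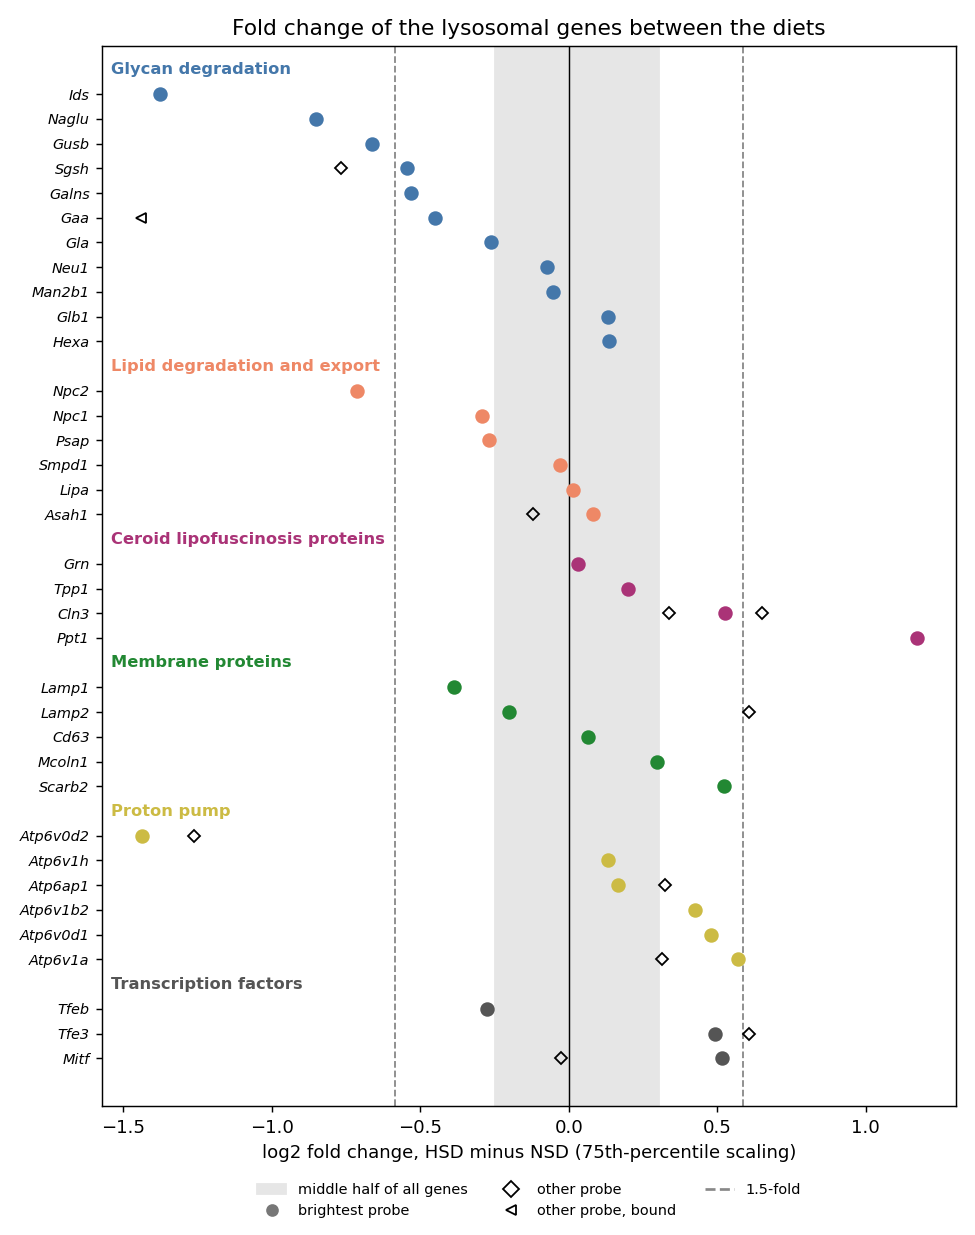
The log2 fold change (HSD minus NSD) of each lysosomal gene after scaling on the 75th percentile, grouped by role. Filled points are the brightest probe of a gene, diamonds are its other probes, the triangle is a bound, the dashed lines mark 1.5-fold, and the grey band runs between the quartiles of all genes, −0.25 and 0.31. Glycan-degrading enzymes extend to the left, and Ppt1 stands alone beyond the right-hand line among the brightest probes.

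Among the 6 genes of lipid breakdown and export, Npc2 stood out. NPC2 is the soluble protein that binds cholesterol in the lysosomal lumen and hands it to NPC1 for export. The signal of Npc2 was 6512 under NSD and 3670.4 under HSD (log2 fold change −0.71), past 1.5-fold under each of the 10 other settings. Its membrane partner Npc1 had signals of 178.6 and 134.8 (log2 fold change −0.29). Psap, the precursor of the saposins that present glycolipids to hydrolases, had 7924 and 6071 (−0.27). The enzymes themselves were close to 0. Lipa, the acid lipase that frees cholesterol from esters, had 1834 and 1711 (0.014), and Smpd1, acid sphingomyelinase, had 468.6 and 424.2 (−0.029). Asah1, acid ceramidase, had 2356 and 2304 (0.082), while its second probe was at −0.12. Each of the latter 3 genes changed sign under at least 1 other setting, and all 3 lay within the spread of spot pairs.

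The 4 members known from neuronal ceroid lipofuscinosis, a storage disease of lipid-laden pigment, were all above 0, with a median of 0.36 (0.28 to 0.37 under the other settings). Ppt1, the thioesterase that removes palmitate from proteins, had the largest difference upwards in the set, with a signal of 495.0 under NSD and 1030.0 under HSD. Its log2 fold change of 1.17 is a 2.25-fold difference, and it was between 1.05 and 1.20 under the other settings. It was measured by 1 probe in 1 spot per array. Cln3, a membrane protein of the lysosome, had 3 probes, all higher in the HSD group. The brightest went from 3069 to 4079.7 (log2 fold change 0.53), and its further probes stood at 0.34 and 0.65. Tpp1, a tripeptidyl peptidase, had 558.7 and 592.5 (0.20). Grn, the progranulin gene, had 7005 and 6609 (0.030), and was at −0.080 with cyclic loess.

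The genes of lysosomal membrane proteins lay on both sides of 0. Lamp1, an abundant glycoprotein of that membrane, had signals of 28049 and 19839 (log2 fold change −0.39, between −0.52 and −0.36 under the other settings). Lamp2, its relative with a part in chaperone-mediated autophagy, had 2 probes that disagreed. The probe filed under NM_010685 went from 7176 to 5762 (log2 fold change −0.20), and the one filed under NM_001017959 from 2088 to 2940.0 (log2 fold change 0.61, or 1.52-fold higher). These are different transcript records of the gene, and it was not determined whether either probe is specific to its transcript. Scarb2, a membrane protein that also acts as a sorting receptor, had 919.4 and 1220.3 (0.52). Mcoln1, the calcium channel mucolipin 1, had 1261 and 1430.4 (0.30). Cd63, a tetraspanin of late endosomes, had 11236 and 10867, a log2 fold change of 0.066 that turned negative under some scalings, to −0.054 with cyclic loess.

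The proton pump divided into a broad group slightly above 0 and a single gene far below it. The pump has a V1 ring that hydrolyses ATP and a V0 ring in the membrane that passes protons, joined by a stalk. Atp6v1a, the catalytic subunit of V1, had signals of 3719 and 5097 (log2 fold change 0.57, 1.48-fold), and its second probe had a log2 fold change of 0.31. Atp6v1b2, the other subunit of the ATP-binding ring, had 953.6 and 1183 (0.43). Atp6v0d1, the widely expressed d subunit of V0, had 2997 and 3854 (0.48). Atp6ap1, an accessory protein of pump assembly, had 754.0 and 782.1 (0.17), with 0.32 on its second probe. Atp6v1h, the regulatory H subunit, had 534.3 and 541.2, a log2 fold change of 0.13 that was −0.0065 with the normexp correction.

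Against these 5 genes, Atp6v0d2 had the largest difference of the 35 members. It encodes the alternative d subunit that is best known from osteoclasts and macrophages. Its brighter probe went from 82.6 under NSD to 28.2 under HSD, and its second probe from 37.8 to 14.5. The log2 fold changes were −1.44 and −1.26, so both probes were more than 1.5-fold lower. With the normexp correction the value of the brighter probe was −0.55, inside 1.5-fold. The other subunits also lay mostly above 0. Of 19 further pump genes, 15 were above 0 and 4 below, with a median of 0.16 and none at least 1.5-fold higher. Atp6v0a4, an isoform best known from kidney, was the 1 gene at least 1.5-fold lower. It read 8.85 under NSD and was dim under HSD, which bounds it at 1.86-fold lower or more. Its NSD signal was near 4.61, the lowest well above background on that array. The others below 0 lay between −0.30 and −0.06. With the normexp correction, 0 of the 25 pump genes were at least 1.5-fold different, beside 619 higher and 655 lower of 16083 genes. Over all 25 pump genes, 20 were above 0, and between 17 and 20 were so under the settings tried. This count includes dim probes, such as Atp6v1b1 (6.35 and 7.98), Atp6v1c2 (8.08 and 9.34) and Atp6v1g3 (7.46 and 7.49). The lowest signals well above background were 4.61 under NSD and 4.39 under HSD. Atp6v1f, with 6006 and 5996, was above 0 (0.11) only after scaling. Across all genes measured, 8849 of 16312 were above 0. The macrophage list, given above, was lower on the same HSD array on which Atp6v0d2 was lower. Of 7 measured osteoclast markers, 4 were below 0 and 3 above, with a median of −0.28. Of these markers 0 differed by at least 1.5-fold, beside 9.86% higher and 10.3% lower among all genes. Acp5, an acid phosphatase of macrophages and osteoclasts, was not on this list and had a log2 fold change of −0.98. The part of macrophages or osteoclasts in the value of Atp6v0d2 was not tested.

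**Figure D3:**
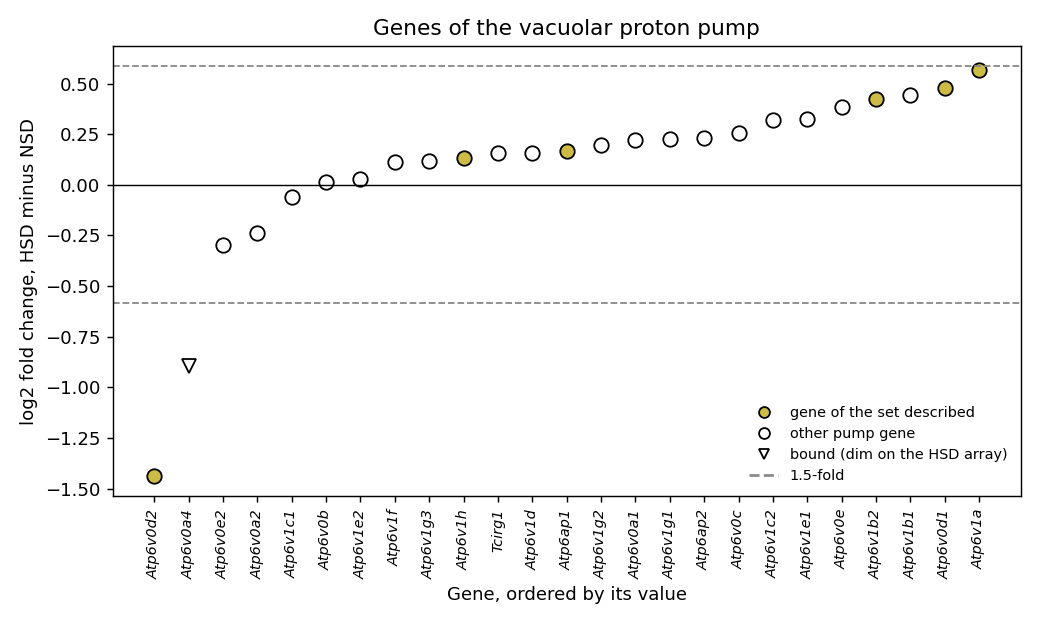
The log2 fold change (HSD minus NSD) of 25 genes of the vacuolar proton pump, ordered by value, with dashed lines at 1.5-fold. Filled points are the 6 genes of the set, open points the 19 other pump genes, and the triangle is a bound. Atp6v0d2, at −1.44, lies far from Atp6v0d1, at 0.48, which encodes the alternative form of the same subunit.

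The 3 transcription factors lay on both sides of 0, none of them at 1.5-fold. Tfe3 had signals of 5689 and 7392 (log2 fold change 0.49), and 0.61 on its second probe. Mitf, the family member best known from pigment cells and osteoclasts, had 813 and 1074 (0.52) on its brighter probe, and 53.8 and 48.8 (−0.028) on the other. Tfeb had 346.0 and 264.0, or −0.28 on the log2 scale, and −0.43 where normexp was used. These are transcript levels, and the arrays do not measure where the proteins are in the cell.

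Members with the CACGTG motif were found on both sides of 0. Their windows are printed above, except those of Glb1 and Gaa. The 10 genes with CACGTG had a median log2 fold change of −0.066, from −0.85 for Naglu to 0.57 for Atp6v1a, with 5 above 0 and 5 below. The 19 measured members whose window lacked it had a median of 0.014, with 10 above and 9 below. Of the 5 genes with TCACGTGA, 4 were above 0 (Cln3, Mcoln1, Atp6v0d1 and Atp6v1a) and Gla was below. Their median was 0.48, and that of the 24 other measured members with a window was −0.042. The number of genes is small, and no test was made.

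The wider lysosomal system was described through lists of genes that are no members. Of 25 measured hydrolases and cofactors outside the set, 17 were below 0 and 8 above, with a median of −0.23 (−0.27 to −0.16 under the other settings). At least 1.5-fold lower were 7 of them (28.0%), and 2 were at least 1.5-fold higher (8.0%), beside 10.3% and 9.86% of all genes. With the normexp correction 3 of the 25 were at least 1.5-fold lower, beside 655 of 16083 among all genes under that correction. With cyclic loess 1 was at least 1.5-fold higher, beside 1244 of 16310 among all genes. Hyal1, whose HSD signal was near the lowest well above background, had the largest difference. Next was Acp5, the tartrate-resistant acid phosphatase of macrophages and osteoclasts, which went from 5488 to 2570.2 (log2 fold change −0.98). Aga, the enzyme that cleaves the link between asparagine and glycans, went from 241.3 to 123.0 (−0.86), and Gm2a, the activator of GM2 ganglioside breakdown, had a log2 fold change of −0.76. On the higher side, Galc, which splits galactose from ceramide, had a log2 fold change of 0.73.

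Other lysosomal membrane proteins were centred near all genes, with a median of 0.12 over 24 genes. On each side 1 gene (4.17%) was past 1.5-fold, beside 9.86% of all genes higher and 10.3% lower. On the lower side, Abcb9, a peptide transporter, had a log2 fold change of −0.85. Of 9 genes that sort hydrolases to the lysosome, 1 (11.1%) differed by at least 1.5-fold, near the 10.3% of all genes that were lower. This was Gnptab, a subunit gene of the transferase that builds the mannose 6-phosphate tag, with signals of 653 and 259 (log2 fold change −1.22). Of 17 measured genes of mTORC1, its Rag GTPases and folliculin, 1 did so, Rptor, with 197.0 and 100.2 (−0.86), while Mtor was at −0.076 and Flcn at −0.029. None of 24 autophagy genes reached 1.5-fold in either direction, beside 9.86% higher and 10.3% lower among all genes. Their median was 0.13. Atg14 and Wipi1 came closest, with log2 fold changes of 0.57 and 0.56. In the deposited log2 values 1 autophagy gene was at least 1.5-fold higher, beside 1394 of 16269 among all genes. With cyclic loess 2 genes of the mTORC1 list were at least 1.5-fold lower, beside 1991 of 16310 among all genes.

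**Figure D4:**
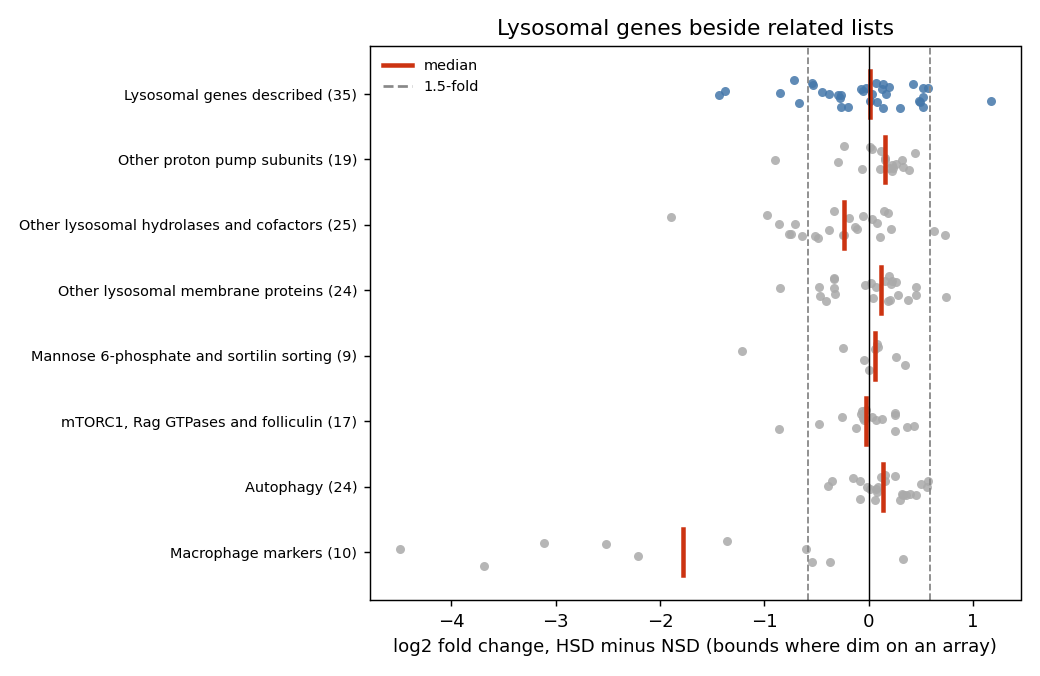
The log2 fold change (HSD minus NSD) of the 35 measured lysosomal genes beside 6 lists of related genes and the macrophage markers, with the number of measured genes in brackets. Points are genes, red bars are medians and dashed lines mark 1.5-fold. The median is 0.014 for the set, −0.23 for the other hydrolases and 0.16 for the other pump subunits, and the macrophage markers spread from −4.50 to 0.33.

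**Figure D5:**
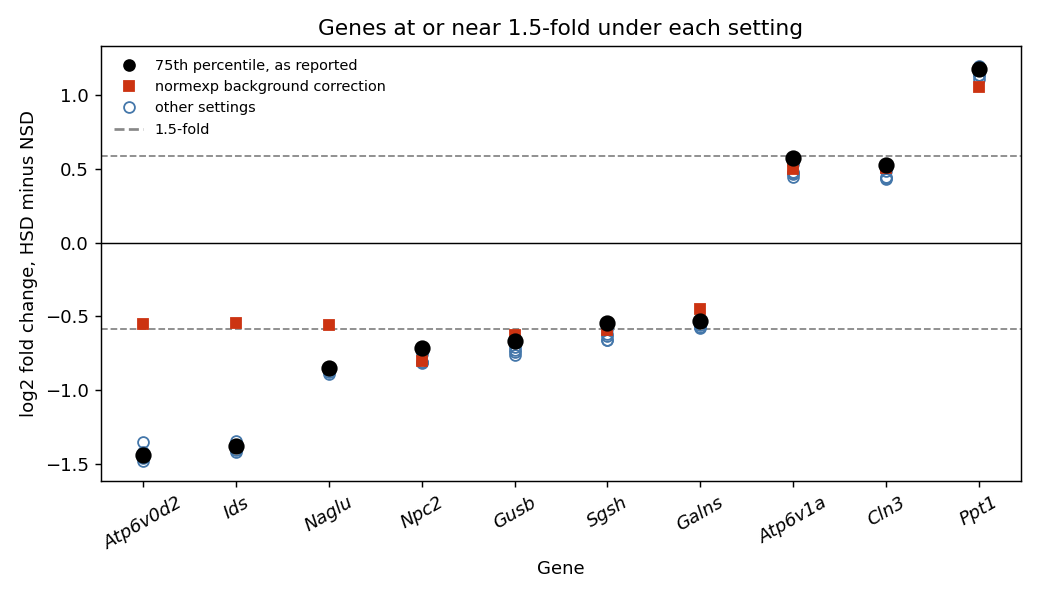
The log2 fold change (HSD minus NSD) of 10 lysosomal genes at or near 1.5-fold under each setting. Filled black points are the reported values, red squares the normexp background correction, open circles the other settings, and dashed lines mark 1.5-fold. With the normexp correction, Atp6v0d2, Ids and Naglu move inside 1.5-fold, to −0.55, −0.54 and −0.56, while Npc2, Gusb and Ppt1 stay outside it.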

How the data were processed

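Total RNA of M-MDSCs from tumours was labelled with Cy3 and hybridised to single-colour Agilent arrays, 1 per diet. For both arrays the authors deposited scanner files from Feature Extraction 11.0.1.1, in which the processed signal is a background-corrected intensity not yet normalized between arrays. The authors also deposited normalized log2 values, made in GeneSpring, which were used as an alternative. Control spots and outlier spots as flagged by the scanner software (162 for NSD, 179 for HSD) were left out, and no spot was saturated. Log2 signals were averaged over the spots of a probe, and the 75th percentile of each array (252 and 233 intensity units) was subtracted. A probe was well above background where at least 50% of its spots were, which held for 71.9% and 72.4% of 39413 probes. For a probe dim on 1 array, a bound was taken from the lowest signal well above background there, or from the probe's own signal if that was higher. Probes were named through RefSeq transcripts of GRCm38.p6 (27223 probes, 69.1%). The array design was annotated on mm9, so no gene coordinates from it are given.

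A gene was called at 1.5-fold. No p-value is given, and precision is limited by having 1 array per diet. The members and lists were chosen with earlier results of these data known. All measured members are named. Of each related list at most 4 genes per direction were named by size, apart from Hgsnat, Idua, Arsb, Mtor, Flcn, Atg14 and Wipi1, which were added after their values were seen. Some genes of the related lists are counted but not reported here by name. Median log2 fold changes of the marker lists were −1.78 for macrophages, −0.37 for monocytes, 0.069 for neutrophils, −0.28 for osteoclasts, −0.015 for dendritic cells, 0.47 for B cells, −0.099 for T and NK cells, 0.18 for carcinoma cells, −0.68 for fibroblasts and 0.086 for endothelial cells.

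Counting was tested on simulated data with known fold changes. The alternatives were normexp background correction on the median spot signal (offset 50), quantile normalization, cyclic loess, scaling on the median or on the 75th percentile of the detected probes, the deposited log2 values, a stricter filter and none on dim probes, a 2-fold threshold, flagged spots kept, and each gene's median over its probes. Software was R 4.3.3 (limma 3.58.1) and Python 3.11.15 (pandas 2.3.3, numpy 2.4.6, matplotlib 3.10.9).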

Additional observations from a re-analysis of the deposited data

How the results depend on the processing

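Ppt1 was the 1 member at least 1.5-fold higher under the reported setting and each of the 11 alternatives. The number of members at least 1.5-fold lower was 5 as reported, 3 with the normexp correction (Gusb, Npc2 and Sgsh) and 2 at the 2-fold threshold (Ids and Atp6v0d2), and between 5 and 7 under the other alternatives. The median of the members stayed between −0.080 and 0.024. Of the 35 members, 27 kept their sign under the 10 alternatives that give a value per gene, and 8 changed it, the largest of these having a reported size of 0.20 (Lamp2, at 0.20 when its 2 probes were averaged). Over all genes, 1608 were at least 1.5-fold higher and 1682 lower as reported, 619 and 655 with the normexp correction, 2903 and 2212 without a filter on dim probes, and 428 and 681 at 2-fold. Of all calls, 48.9% were higher as reported and 38.5% with cyclic loess. The normexp correction adds an offset to each signal, which by construction shrinks the fold changes of dim probes such as those of Ids, Naglu and Atp6v0d2. All 35 members were well above background on both arrays. Low signal still limited the calls of Ids, Naglu and Atp6v0d2, which moved inside 1.5-fold with that correction. No paired analysis was possible because each diet has 1 array.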

Other observations

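The deposited log2 values of the 2 arrays had the same distribution. When the 39485 values of each column were sorted, 99.7% of them were equal within 0.001, the largest difference was 0.052, and both medians were 4.61. This is consistent with quantile normalization between the arrays, a method that the sources used here do not name. In these values Gusb had a log2 fold change of −0.76, its lowest under any setting, and Ppt1 of 1.20, its highest.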
